A study of Mus musculus with 6 samples.

Results

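The IER genes Ier2, Ier3, Ier5 and Ier5l, the mRNA decay factors Zfp36, Zfp36l1 and Zfp36l2, the transcription factor gene Myc and the synaptic gene Arc were followed in mouse granulosa cells (GCs) after cyclophosphamide (CTX). They were taken by gene symbol as a named set of early response genes and mRNA decay factors outside the FOS, JUN, EGR and NR4A families. The set does not hold all such genes, and its 9 genes are a small part of the 54532 in the table. RNA-seq was carried out on 6 samples, 3 from the CTX group and 3 from the PBS group. All mice were 3-week-old ICR females that first received 5 IU of PMSG, a gonadotropin that drives follicles to grow, and 22 h later an intraperitoneal injection of either 120 mg/kg CTX, an alkylating drug that crosslinks DNA, or PBS as vehicle. GCs were isolated 6 h after that injection, and GCs of 3 mice were pooled in each sample, so the spread between samples is between pools and not between single animals.

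Immediate-early genes are transcribed within minutes of a stimulus from factors already present in the cell, and most of their mRNAs are short-lived. Proteins of the ZFP36 family are part of the reason for this in many cell types, since they bind AU-rich elements in 3′ untranslated regions through a pair of zinc fingers and recruit the CCR4-NOT deadenylase, which shortens the poly(A) tail. In GCs, immediate-early genes are best known from the response to the ovulatory surge of luteinizing hormone, and ZFP36L2 is known for binding the mRNA of its receptor. MYC pairs with MAX on E-box sequences and promotes growth and ribosome production, and MXD and MNT proteins compete with it for MAX.

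The sequences below show the AU-rich nonamer, the preferred site of ZFP36 proteins, in the mRNAs of the family that binds it. Each window is the sense strand, 5′ to 3′, with the nonamer in capitals, and each stood on the minus strand of GRCm38 in the 3′ untranslated region of the longest coding transcript in GENCODE M21. The Zfp36 site was at chr7:28376951-28376979, 589 bases after the stop codon, the Zfp36l1 site at chr12:80108167-80108195, 1404 bases after it, and the Zfp36l2 site at chr17:84184914-84184942, 821 bases after it.
Zfp36: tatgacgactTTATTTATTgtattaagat
Zfp36l1: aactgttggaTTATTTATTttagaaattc
Zfp36l2: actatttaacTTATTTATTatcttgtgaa

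Each of the 3 ZFP36 family mRNAs held the nonamer TTATTTATT 1 time, and it was found 0 times in the 3′ untranslated regions of Ier2, Ier3, Ier5, Ier5l, Myc and Arc. Among tested genes whose 3′ untranslated region was within 20% of the same length, 4.56% of 1383 held it for Zfp36, 8.53% of 1771 for Zfp36l1 and 8.47% of 1772 for Zfp36l2. The shorter pentamer ATTTA, which also lies within the nonamer, occurred 9 times in Zfp36l1, 5 times in Zfp36l2, 5 times in Ier3, 3 times in Zfp36, 3 times in Ier5l, 2 times in Ier5, 2 times in Myc and 0 times in Ier2 and Arc. For Ier3, whose 3′ untranslated region is only 613 bases long, 2.50% of genes of like length had as many pentamers, and for Zfp36l1 it was 4.01%. A match of letters is a description of the transcript and was not tested as a binding site.

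RefSeq promoter windows (GRCm38.p6, 250 bases before to 50 after the start) were matched for 5 of the 9 genes, Ier3, Ier5, Ier5l, Zfp36 and Zfp36l1. Stretches of the Zfp36 and Zfp36l1 windows are shown because they were the 2 with matches to motifs of stimulus-responsive factors. The 2 Zfp36 stretches were at chr7:28379310-28379338 and chr7:28379269-28379293 on the minus strand, 110 to 82 and 65 to 41 bases before the RefSeq start, with a match to the EGR motif (GCGNGGGCG), one to the ETS motif (CCGGAAG) and a CArG box, the element read by serum response factor, in capitals. They lie inside the deposited gene interval, because a longer annotated transcript of Zfp36 starts further upstream. The Zfp36l1 stretch was at chr12:80113034-80113148 on the minus strand, 135 to 21 bases before the start, with an AP-1 motif (TGANTCA) and a TATA motif (TATAAA) in capitals.
Zfp36, EGR and ETS: acgccGCGGGGGCGcgtcCCGGAAGctct
Zfp36, CArG box: ggccgccCCATAAAAGGagaaagct
Zfp36l1: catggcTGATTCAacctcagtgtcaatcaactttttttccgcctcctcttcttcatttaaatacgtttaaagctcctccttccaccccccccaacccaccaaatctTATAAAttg

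Of all 32851 promoter windows, 5.55% held the EGR motif, 8.86% the ETS motif, 1.63% a CArG box, 7.81% the AP-1 motif and 8.32% the TATA motif. Of the 12560 windows of tested genes, 10.6% held the EGR motif, 17.4% the ETS motif, 1.25% a CArG box, 4.78% the AP-1 motif and 4.28% the TATA motif. Both strands were searched except for the TATA motif, which was searched on the sense strand. The same letters, and those of the CRE (TGACGTCA, and TGACG alone), the MYC-MAX E-box (CACGTG) and a p53 half-site pair, were not in the Ier3, Ier5 and Ier5l windows. For the TATA motif only the exact letters TATAAA were searched, so these windows may hold other TATA-like sequences.

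The 9 genes also shared a compact structure. All had at most 3 exons in any annotated transcript (1 exon in Ier2, Ier5 and Ier5l), which was the case for 11.4% of the 11990 tested protein-coding genes. Their spans ran from 1240 bases (Ier3) to 5260 bases (Zfp36l1), against a median of 23655.5 bases over those genes.

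Libraries held 16005869 to 18455011 reads on genes, rebuilt from the deposited FPKM values and gene lengths. All 12 GC markers, among them Fshr, Inha and Foxl2, were expressed in every sample, with a summed FPKM of 13857 to 15178 in PBS samples and 11896 to 12790 in CTX samples. Of the 12, 10 had lower and 2 higher fitted values, with a median log2 fold change of -0.27. In 8 of them every CTX sample was below every PBS sample, and the share of all tested genes lying this way was not counted. Limma called 0 of the 12 (0 higher and 4 lower at an unadjusted p under 0.05). Leukocyte markers summed to 23.2 to 25.9 FPKM in PBS samples and to 39.3, 72.7 and 27.3 in CTX replicates 1, 2 and 3. Of the 7 tested, 3 (Lyz2, Cd68 and Tyrobp) were higher in every CTX sample than in any PBS sample, against 15.0% of all tested genes. Limma called 0 of the 7 (1 at an unadjusted p under 0.05). Theca and stroma markers summed to 66.1 to 69.8 FPKM with PBS and 33.5 to 96.1 with CTX, endothelial markers to 5.97 to 6.45 and 2.58 to 5.41, oocyte markers to 37.5 to 79.1 and 52.8 to 94.3 and red blood cell markers to 319 to 454 and 138 to 497, and of these only Acta2 of the stroma list was called (limma log2 fold change 1.08). CTX replicate 2 stood apart from the other 5 samples, at 74.7 on a first principal component holding 46.8% of the variance, with the others between -26.6 and 13.2. The part of these differences in the results was not tested. In bulk samples, fewer cells of a type and less RNA per cell cannot be told apart.

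All 9 genes had a higher level in every CTX sample than in any PBS sample. This separation was found in 8 of the 8 genes that were expressed enough to be tested, compared with 15.0% of all 14463 tested genes, and an exact permutation test of 3 against 3 samples gave p = 0.10 for each gene, the smallest this design allows. Using limma on log2(FPKM + 0.1), 5 of the 8 were called higher (Benjamini-Hochberg adjusted p under 0.05 and a change of more than 2-fold), namely Zfp36, Zfp36l1, Ier2, Ier3 and Ier5, where 0.802% of all tested genes were called. None of the 8 was called lower, against 0.159% of tested genes. The median log2 fold change of the 8 was 1.25, and over all tested genes it was -0.01. The same 5 genes were called with CTX replicate 2 left out, with log2 fold changes of 2.10 for Zfp36, 1.29 for Ier3, 1.19 for Zfp36l1 and for Ier5, and 1.13 for Ier2.

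**Figure D1:**
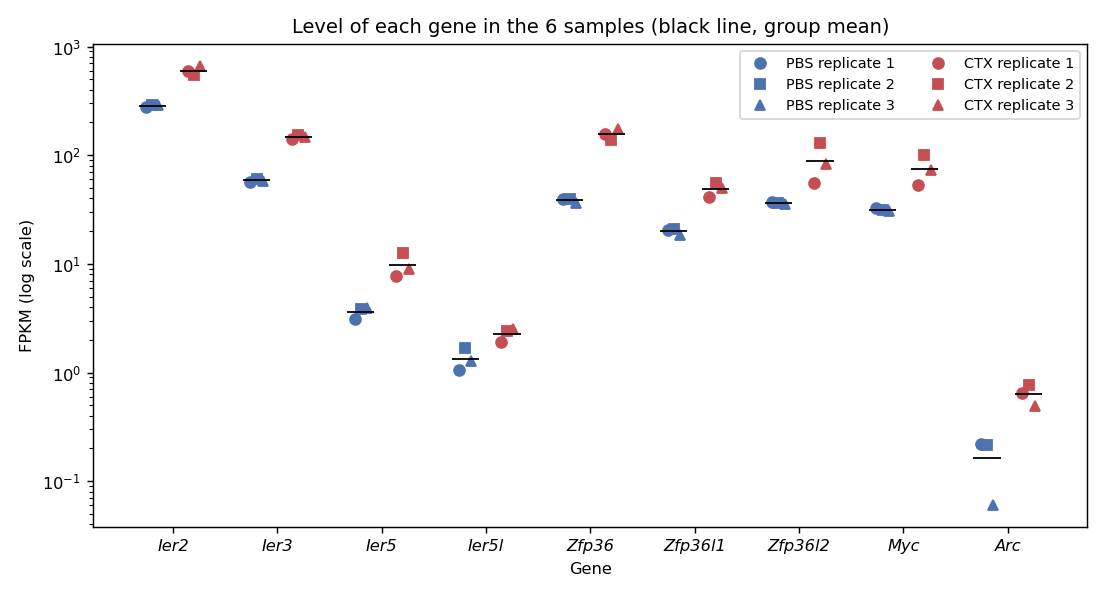
Level of each of the 9 genes in the 6 samples, as FPKM on a log axis, with PBS samples in blue, CTX samples in red, a symbol for each replicate number and a black line at the group mean. The red points lie above all blue points for every gene, and Ier2 has the highest level and Arc the lowest in both groups.

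Ier2, which encodes a nuclear protein of the early growth factor response, had the highest level of the 9. Its FPKM was 276, 288 and 292 after PBS and 591, 549 and 663 after CTX. The mean therefore went from 285 ± 8.75 to 601 ± 57.3 (SD, n = 3 each), a 2.11-fold change with no overlap between the groups, and the lowest CTX sample was replicate 2. The log2 fold change was 1.07 (SE 0.10, limma adjusted p = 0.005). In level it moved from place 115 to place 44 among the 14463 tested genes. The gene is on chromosome 8 (84661331-84662852, minus strand, GRCm38).

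Ier3 encodes a small stress-induced protein that modulates cell survival, and it was the steadiest of the 9 after CTX. FPKM was 56.9, 60.4 and 58.4 with PBS, and 141, 153 and 146 with CTX. The 3 CTX samples differed by only 1.08-fold between highest and lowest, and all were at least 2.33 times the highest PBS sample. The group means were 58.6 ± 1.77 and 146 ± 5.87 (SD, n = 3 each), and the log2 fold change was 1.32 (SE 0.06, limma adjusted p = 8.2e-04). Ier3 lies on chromosome 17 (35821684-35822923, plus strand).

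Ier5, which encodes a partner of the phosphatase PP2A and of the heat shock factor HSF1, was expressed at a far lower level. Its FPKM was 3.13, 3.83 and 3.90 with PBS and 7.80, 12.6 and 8.98 with CTX, so that the lowest CTX sample was 2.00 times the highest PBS sample. Replicate 2 was the highest CTX sample. The log2 fold change was 1.39 (SE 0.19, limma adjusted p = 0.024), and it was 1.19 (limma adjusted p = 0.008) without CTX replicate 2. In 4 of the other fits with 1 sample left out the call was lost, with a limma adjusted p of up to 0.12. The gene is on chromosome 1 (155096361-155099636, minus strand).

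Ier5l, a paralog of Ier5, was the IER gene with the lowest level and did not pass the test. FPKM was 1.05, 1.69 and 1.29 with PBS and 1.91, 2.39 and 2.54 with CTX, from 50 to 83 and 93 to 122 rebuilt reads per sample. The groups came close without overlapping, the lowest CTX sample being 1.13 times the highest PBS sample. The log2 fold change was 0.74 (SE 0.21, limma adjusted p = 0.15), and the gene is on chromosome 2 (30471537-30474219, minus strand).

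The 4 IER genes together summed to 349 ± 10.7 FPKM with PBS and 760 ± 53.6 with CTX (SD, n = 3 each). Ier2 made up most of this sum in all samples, 81.8% on average with PBS and 79.0% with CTX. The share of Ier3 was 16.9%, 17.1% and 16.4% after PBS and 19.0%, 21.3% and 17.8% after CTX. It was higher in all CTX samples by 2.57 percentage points on average, with an exact permutation p of 0.10, the smallest possible. Without CTX replicate 2 the mean difference was 1.60 percentage points.

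Zfp36, which encodes tristetraprolin, the founding member of the ZFP36 family, had the largest fitted change of the 8 tested genes. FPKM was 39.1, 39.7 and 36.2 with PBS and 156, 139 and 174 with CTX. Every CTX sample was at least 3.50 times the highest PBS sample, and replicate 2 was the lowest of them. The means were 38.3 ± 1.90 and 156 ± 17.3 (SD, n = 3 each), a 4.07-fold change with a log2 fold change of 2.02 (SE 0.10, limma adjusted p = 8.2e-04). The gene rose from place 1398 to place 263 in level among the 14463 tested genes. It is on chromosome 7 (28376784-28380253, minus strand), where it overlaps Gm44710 on the other strand, which held 4 to 18 reads per sample.

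Zfp36l1 encodes a family member with the same mode of action and started from a lower level. Its FPKM was 20.5, 20.8 and 18.4 with PBS and 41.2, 55.3 and 50.2 with CTX. The lowest CTX sample, replicate 1, was 1.98 times the highest PBS sample. The log2 fold change was 1.28 (SE 0.12, limma adjusted p = 0.0058). The gene is on chromosome 12 (80107754-80113013, minus strand) and overlaps Gm26669 on the other strand, which held 15 to 45 reads per sample. Whether counting used strand is not given in the sources used here.

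Zfp36l2, the family member known for binding the luteinizing hormone receptor mRNA, differed most between CTX samples. FPKM was 37.1, 36.2 and 35.4 with PBS and 55.1, 129 and 83.1 with CTX. The PBS samples were close together, whereas the CTX samples spread 2.35-fold, with replicate 2 the highest. The means were 36.3 ± 0.843 and 89.1 ± 37.4 (SD, n = 3 each), and with a log2 fold change of 1.21 (SE 0.29) it did not pass the test (limma adjusted p = 0.11). Leaving out CTX replicate 2 gave 0.90 (limma adjusted p = 0.045), below the 2-fold threshold, and leaving out CTX replicate 1 gave 1.51 (limma adjusted p = 0.023), past both thresholds. The gene is on chromosome 17 (84183931-84187947, minus strand).

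**Figure D2:**
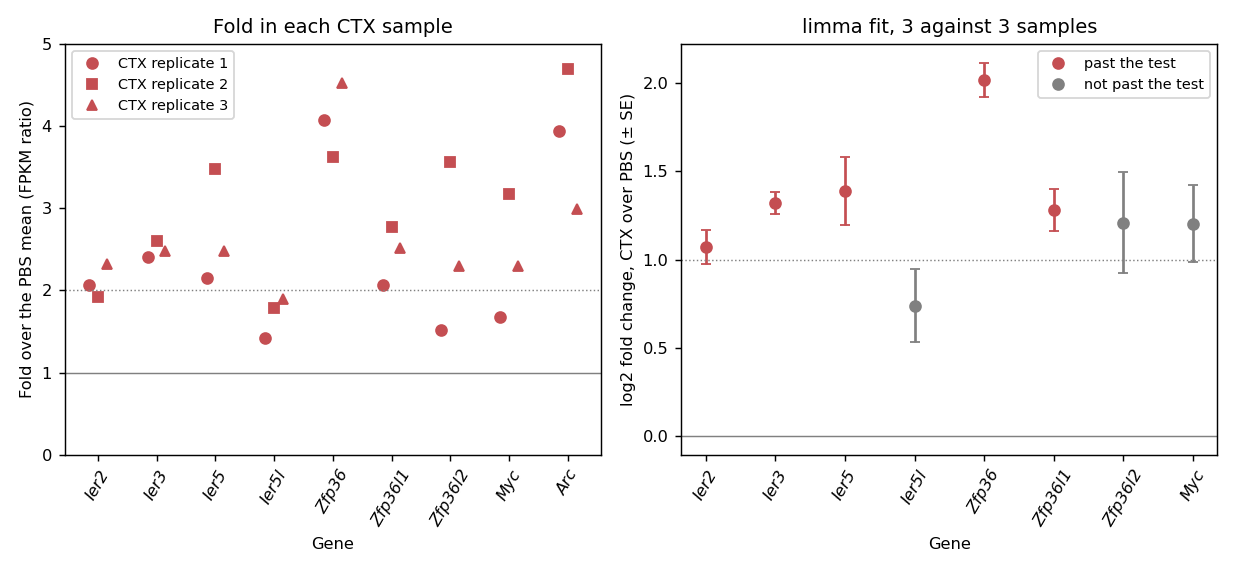
Left, FPKM of each CTX sample divided by the PBS mean of the gene, with a symbol per replicate, a solid line at 1 and a dotted line at 2. Right, limma log2 fold change with its SE for the 8 tested genes, in red where past the test and in gray where not. Zfp36 lies between 3.63 and 4.53 in the CTX samples, Ier3 between 2.41 and 2.61, and Zfp36l2 between 1.52 and 3.56.

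The makeup of the family by FPKM differed as well. The summed level of the 3 genes was 94.5 ± 3.90 FPKM with PBS and 294 ± 37.3 with CTX (SD, n = 3 each). Zfp36 held 40.4%, 41.0% and 40.2% of it with PBS, and 61.8%, 43.0% and 56.6% with CTX. The share of Zfp36 was higher in all 3 CTX samples by 13.2 percentage points on average (exact permutation p = 0.10, the smallest possible), but in CTX replicate 2 it was only slightly above the PBS samples. The share of Zfp36l2 was 38.3%, 37.5% and 39.3% with PBS and 21.8%, 39.9% and 27.1% with CTX, overlapping between the groups. Zfp36l1 held 20.5% to 21.5% with PBS and 16.3% to 17.1% with CTX. Without CTX replicate 2 the mean difference in the Zfp36 share was 18.7 percentage points.

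**Figure D3:**
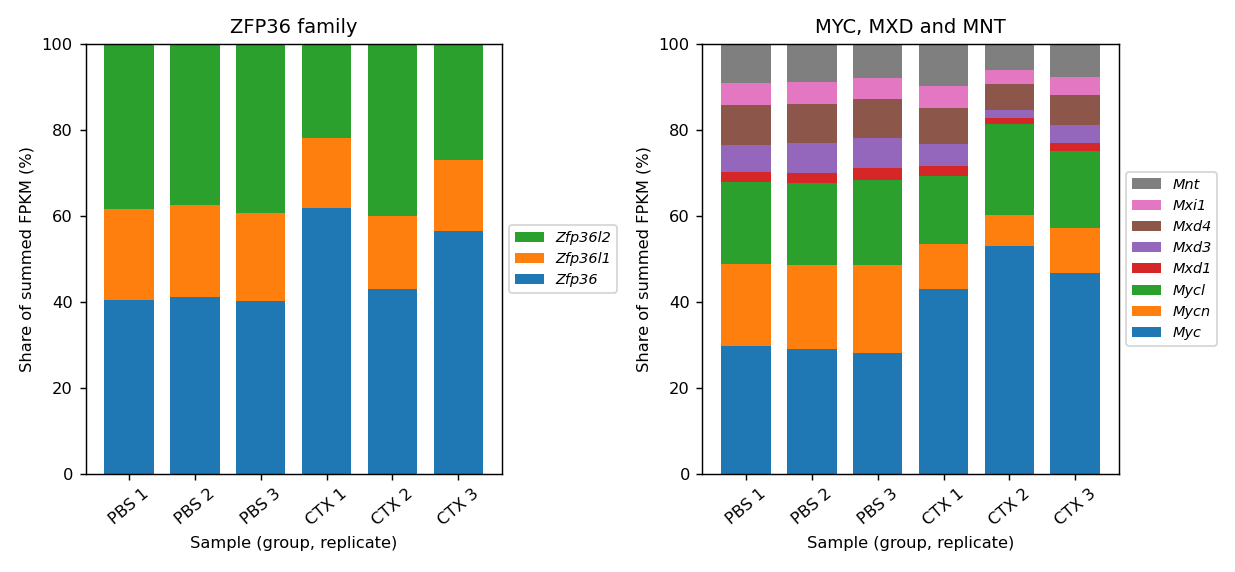
Share of each gene in the summed FPKM of its family, as stacked bars from 0 to 100% for each of the 6 samples, for the ZFP36 family on the left and for Myc with its relatives and antagonists on the right. The Zfp36 segment is 40.2% to 41.0% in PBS samples and 43.0% to 61.8% in CTX samples, and the Myc segment is 28.1% to 29.8% in PBS samples and 42.9% to 53% in CTX samples.

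The machinery through which ZFP36 proteins act was compared next. Of 33 tested genes of deadenylation and decapping, limma called 0 in either direction (2 higher and 5 lower at an unadjusted p under 0.05), and the log2 fold changes, 17 above and 16 below 0, ran from -0.40 (Cnot6, a catalytic CCR4-NOT subunit, limma adjusted p = 0.22) to 0.38 (Pabpc1, the cytoplasmic poly(A)-binding protein, limma adjusted p = 0.10). Limma voom on rebuilt reads also called 0 genes in this list and in each other list with a count of 0. Of 13 tested genes for other proteins that bind AU-rich or stem-loop elements, limma called 0 as well (0 higher and 2 lower at an unadjusted p under 0.05), with a median log2 fold change of -0.02. Among these, the AU-rich element binding gene Khsrp had a mean FPKM of 64.7 with PBS and 62.0 with CTX.

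Among mRNAs with AU-rich elements that ZFP36 proteins are known to bind, more had higher than lower fitted values. Of 23 tested targets limma called 7 higher and 0 lower (14 and 1 at an unadjusted p under 0.05), against 0.802% and 0.159% of all tested genes. Fitted values were higher for 17 and lower for 6, and the median log2 fold change was 0.48. The 7 were the chemokine genes Cxcl1 (2.55) and Cxcl2 (2.52), the cytokine genes Lif (2.27) and Il1b (2.23), the signaling inhibitor Socs3 (2.10), the NF-kB regulator Nfkbiz (2.04) and Fos (1.85), where the values are log2 fold changes. Il1b, Cxcl2 and Lif were low, with mean FPKM of at most 3.63 in either group, and Fos and Nfkbiz are also immediate-early genes. Across all tested genes with an annotated 3′ untranslated region, the median log2 fold change was -0.00 for those with 0 copies of the nonamer, -0.01 with 1 copy, -0.04 with 2 and -0.01 with 3 or more.

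Lhcgr, which encodes the luteinizing hormone receptor and is a described ZFP36L2 target, had FPKM values of 112, 113 and 108 with PBS and 129, 1.48 and 53.1 with CTX. Its level in CTX replicate 2 was far below that in all other samples, CTX replicate 1 was above the PBS samples, and the log2 fold change of -2.33 did not pass the test (SE 1.54, limma adjusted p = 0.42). Over the 3 CTX samples the order of Lhcgr was the reverse of that of Zfp36l2. Star, which encodes the cholesterol carrier of steroidogenesis, is also on the list of AU-rich targets and was picked after its values were seen. It had the same order as Lhcgr, with 41.7, 1.73 and 24.2 FPKM in the CTX samples and up to 20.5 in the PBS samples. The position of the 3 samples on the first principal component (-9.81, 74.7 and 13.2) had the same order as Zfp36l2, and with 3 samples no relation can be tested.

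**Figure D4:**
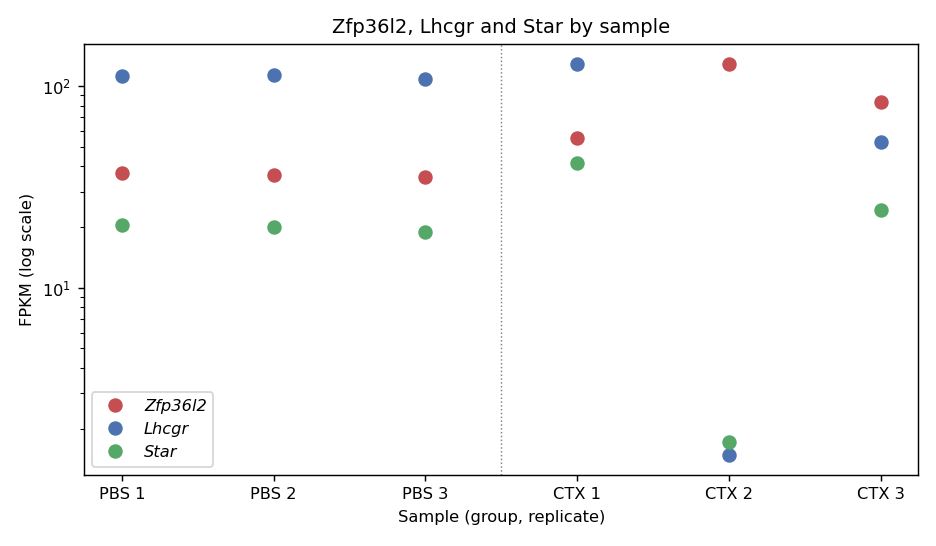
FPKM of Zfp36l2, Lhcgr and Star in each of the 6 samples on a log axis, with a dotted line between the groups. In PBS samples all 3 genes are level, and in CTX replicate 2 Zfp36l2 is at 129 while Lhcgr is at 1.48 and Star at 1.73.

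Myc had FPKM values of 32.8, 31.3 and 30.7 with PBS and 53.1, 100.4 and 72.6 with CTX. All CTX samples were above the PBS samples, by at least 1.62-fold, and replicate 2 was the highest. The means were 31.6 ± 1.09 and 75.4 ± 23.7 (SD, n = 3 each), and the log2 fold change of 1.20 (SE 0.22) missed the threshold (limma adjusted p = 0.058). It was 0.97 (limma adjusted p = 0.019) without CTX replicate 2, just below 2-fold, and 1.43 (limma adjusted p = 0.012) without CTX replicate 1. With limma voom on the rebuilt reads Myc passed both thresholds (log2 fold change 1.21, adjusted p = 0.039). Myc is on chromosome 15 (61985391-61990374, plus strand).

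Mycn, the family member of embryonic and progenitor cells, had the opposite direction, with 21.5 ± 0.693 FPKM in PBS samples and 14.4 ± 1.81 in CTX samples (SD, n = 3 each) and no overlap between the groups. Its log2 fold change of -0.59 had a limma adjusted p of 0.049 but was short of 2-fold, and Max, the shared partner, had a mean FPKM of 32.5 with PBS and 30.2 with CTX. Myc made up 29.8%, 28.9% and 28.1% of the summed FPKM of Myc, Mycn, Mycl, Mxd1, Mxd3, Mxd4, Mxi1 and Mnt with PBS and 42.9%, 53% and 46.7% with CTX. This was 18.6 percentage points higher on average in CTX samples (exact permutation p = 0.10, the smallest possible), and 15.8 without CTX replicate 2. Of 13 tested genes of the MAX network other than Myc, limma called 0 (2 higher and 2 lower at an unadjusted p under 0.05).

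Known targets that MYC activates did not pass the call thresholds 6 h after CTX. Of 39 tested, limma called 0 (8 higher and 4 lower at an unadjusted p under 0.05), 31 had higher and 8 lower fitted values, and the median log2 fold change was 0.18, with a range of -0.68 to 0.52. Those with the highest levels were Npm1, a nucleolar chaperone (0.40, limma adjusted p = 0.18), the translation factor genes Eif5a (0.25) and Eif4a1 (0.12), and Ldha, the lactate dehydrogenase subunit of glycolysis (-0.68, limma adjusted p = 0.02, short of 2-fold). Of 13 tested genes that control MYC stability or transcription, limma called 0 (0 higher and 3 lower at an unadjusted p under 0.05), with a median of -0.01.

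Arc, known from synaptic plasticity in neurons, was at the limit of detection. With PBS it had 12, 12 and 3 reads, and with CTX 36, 42 and 27, which is 0.220, 0.214 and 0.0606 FPKM against 0.650, 0.774 and 0.493. The counting intervals (exact Poisson, 95%, covering counting error only) of PBS replicate 1 (0.114 to 0.385) and CTX replicate 3 (0.325 to 0.717) overlapped. Its mean FPKM was under the minimum of 0.5, and it was therefore not among the tested genes. With no minimum its log2 fold change was 1.53 (limma adjusted p = 0.21), and the ratio of mean FPKM was 3.87. Arc is on chromosome 15 (74669083-74672570, minus strand).

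In order of level, the PBS samples ran Ier2, Ier3, Zfp36, Zfp36l2, Myc, Zfp36l1, Ier5, Ier5l and Arc. Of these neighbors, Zfp36 and Zfp36l2 overlapped in FPKM and all other neighbors were separate. In CTX samples Zfp36 stood above Ier3 by mean, although their samples overlapped, and so did those of Zfp36l2, Myc and Zfp36l1. Zfp36 and Zfp36l2, which overlapped with PBS, were separate with CTX.

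The CTX samples did not rank the same way for all genes. Ier3, Ier5, Zfp36l1, Zfp36l2, Myc and Arc were highest in replicate 2, while Ier2 and Zfp36 were lowest in it. Ier2, Zfp36 and Ier5l were highest in replicate 3. Of the 2175 tested genes that were higher in every CTX sample than in any PBS sample, 64.5% were highest in replicate 2, 17.5% in replicate 1 and 18.1% in replicate 3. The coefficient of variation over the CTX samples was 42.0% for Zfp36l2, 31.5% for Myc and 4.01% for Ier3, and the median of all tested genes was 12.9%.

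The tested genes with the profile nearest to each of these genes except Arc were found as the root mean square difference over the 6 samples of log2(FPKM + 0.1) after subtracting the PBS mean. Nearest to Zfp36 were Klf6 (0.07), Socs3 (0.07) and Btg2 (0.10). Like Zfp36, they were lowest in replicate 2 and highest in replicate 3 among CTX samples, an order that picking by profile favors. Nearest to Ier2 were Slc19a2, a thiamine transporter gene (0.08), Tiparp (0.09) and Aen (0.10). Ier3 was nearest to Pnrc1 (0.08), Ppp1r15a, a stress-induced regulator of translation (0.08), and Jun (0.08), and Zfp36l1 to Jun (0.05), Irf1 (0.10) and Pnrc1 (0.11).

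Zfp36l2 and Myc lay 0.09 from each other on this measure, nearer than the nearest gene outside the 9 was to either. Ier5 was nearest to Pvt1 (0.08), a noncoding RNA gene beside Myc on chromosome 15, with a mean FPKM of 0.354 and 1.15, then Arrdc3 (0.13) and Gm26532 (0.13). Myc was nearest to Pim3, a kinase gene (0.11), Etnk2 (0.11) and Glipr2 (0.12), and Zfp36l2 to Pqlc1 (0.12), Tcea3 (0.13) and Glipr2 (0.13). Ier5l, with the fewest reads of the 8, was nearest to Gm15867 (0.09), 1700056E22Rik (0.10) and Casp12 (0.11).

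Most of the other immediate-early genes were higher too. Of 37 tested, limma called 25 higher and 0 lower (31 and 0 at an unadjusted p under 0.05), against 0.802% and 0.159% of all tested genes. In 31 of them every CTX sample was above every PBS sample, against 15.0% of all tested genes. The median log2 fold change was 1.70. The largest log2 fold changes were those of the transcription factor genes Klf4 (3.21), Atf3 (3.13), Egr2 (3.02) and Egr4 (2.69), the kinase gene Plk2 (2.68) and the transcription regulator Csrnp1 (2.57). Fos (mean FPKM 384 to 1385), Jun (438 to 1070) and Egr1 (301 to 899) had the highest levels, with means above that of Ier2 in both groups. Of 15 tested genes for upstream factors such as SRF, ELK and MEF2 proteins, limma called 0 (3 higher and 0 lower at an unadjusted p under 0.05), with a median of 0.05, and Srf itself had a mean FPKM of 24.4 and 41.9 (log2 fold change 0.76, limma adjusted p = 0.087).

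Of 28 tested p53 targets, limma called 15 higher and 0 lower (23 and 0 at an unadjusted p under 0.05), against 0.802% and 0.159% of all tested genes. Their median log2 fold change was 1.32. The largest log2 fold changes were those of the stress cytokine gene Gdf15 (4.50), the BH3-only genes Pmaip1 (3.99) and Bbc3 (2.84), Phlda3 (3.67) and Eda2r (3.18), all above that of Zfp36. Plk2, Plk3 and Btg2 are on both this list and the immediate-early list. Of the 14 tested partners and pathways of IER proteins, limma called 0 (5 higher and 1 lower at an unadjusted p under 0.05). The largest value was that of Mcl1, a survival protein that IER3 binds, with a log2 fold change of 0.59 (limma adjusted p = 0.017, short of 2-fold), and Hsf1 had a mean FPKM of 8.83 with PBS and 8.09 with CTX. Of 14 tested HSF1 targets, limma called 0 (4 higher and 2 lower at an unadjusted p under 0.05), with a median of 0.12, and 1 was called without CTX replicate 2. The largest value was that of Dnajb1, a stress-induced co-chaperone, with a mean FPKM of 32.9 with PBS and 66.6 with CTX and no overlap between the groups (log2 fold change 0.98, limma adjusted p = 0.063), and Hspa8, a constitutive chaperone, was at 0.52 (limma adjusted p = 0.04).

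**Figure D5:**
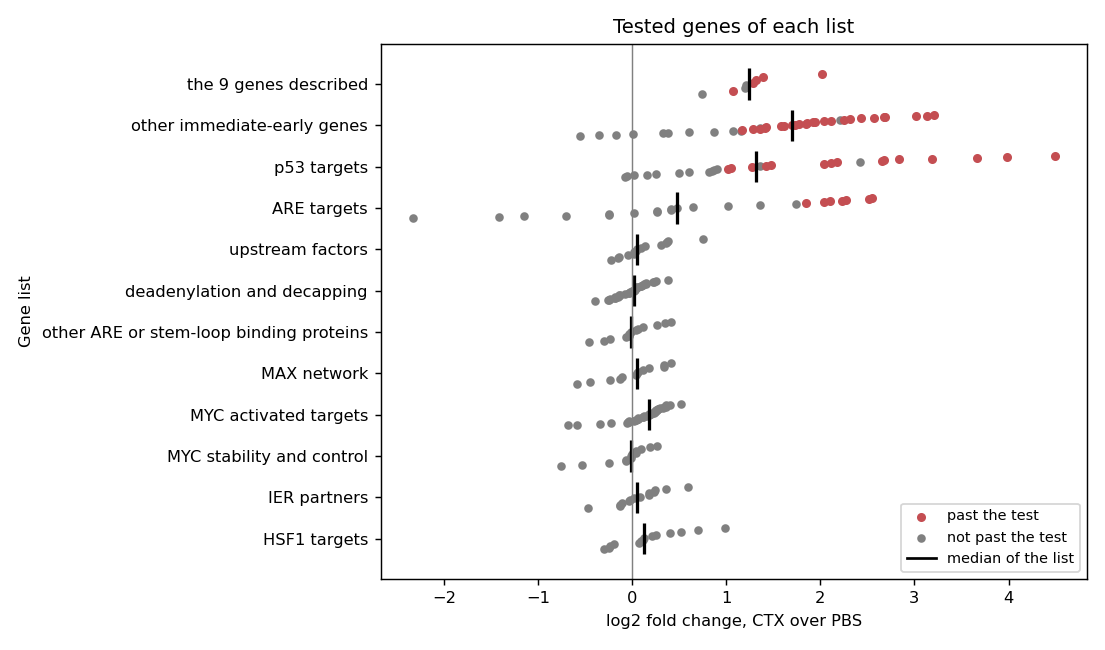
Limma log2 fold change, CTX over PBS, of every tested gene in each list, with the 8 tested of the 9 genes on top, red points past the test, gray points not past it and a black bar at the median of the list. The lists of the 9 genes, the other immediate-early genes and the p53 targets have medians of 1.25, 1.70 and 1.32. The lists for deadenylation and decapping, the MAX network, MYC targets and IER partners have medians of 0.02, 0.06, 0.18 and 0.05, with 0 called genes. Of the 39 MYC targets, 31 lie above 0.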

How the data were processed

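RNA-seq of 6 samples of mouse GCs was used, grouped as PBS or CTX from their labels, with 3 pools of mice per group. The authors deposited FPKM values per gene and sample. The submitters' processing notes name CASAVA 1.8, fastp, HISAT2 2.0.5, featureCounts 1.5.0-p3, DESeq2 1.20.0 and the build mm10, and strandedness is not given in the sources used here. The deposited table also holds the authors' group mean signal, log2 fold change, p-value and adjusted p-value, which were not used.

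FPKM values were tested as log2(FPKM + 0.1) with limma 3.58.1 (lmFit, eBayes with trend) in R 4.3.3, on the 14463 genes whose mean FPKM reached 0.5, with Benjamini-Hochberg adjustment over all of them. A call required an adjusted p under 0.05 and more than 2-fold, the threshold of the study. At these cut-offs the study reported more genes in each direction than the 116 higher and 23 lower called here. A list with 0 called genes is therefore not shown to be unchanged. The share of all tested genes at an unadjusted p under 0.05 was not counted. In data simulated with the same spread per gene in both groups, the fit recovered 157 of 190 changed genes, with 6 false calls. Each changed gene was given a log2 change of 2 up or down. Smaller changes were not simulated, so recovery near the 2-fold threshold is not known. The real CTX samples differed more from each other than the PBS samples did, which this simulation did not copy. FPKM multiplied by gene length came out as whole multiples of 1 read (tolerance 0.01) in 100% of values, which gave rebuilt reads of 16005869 to 18455011 per sample. Intervals cover counting error only. Family shares were compared by two-sided exact permutation tests. Python 3.11.15, pandas 2.3.3, NumPy 2.4.6, SciPy 1.17.1 and matplotlib 3.10.9 were used.

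The 9 genes and all lists (immediate-early genes, upstream factors, mRNA decay factors, AU-rich targets, MAX network, MYC targets and regulators, IER partners, HSF1 and p53 targets, cell markers) were chosen with earlier results of these data known. All 9 are named, with, from each list, up to 6 called genes by size of change and up to 4 by level, and the 3 nearest profiles of each of the 9 except Arc, which was not tested. Other names were chosen after their values were seen, namely Star, Hsf1, Dnajb1, the GC and leukocyte markers and the overlapping genes. Gene positions are those of the deposited table and equal GENCODE M21 for all 9.

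Samples of both groups carry the numbers 1 to 3, but each holds different mice. No block was therefore fitted in the reported test. Alternatives were other pseudocounts, filters, scalings, weights, limma voom on rebuilt reads, the block, and each sample left out.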

Additional observations from a re-analysis of the deposited data

How the results depend on the processing

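The 8 tested genes had a higher fitted level in CTX in each of the 19 fits in which they were tested (18 for Ier5l, which is below a minimum of 5 FPKM). The fits used other pseudocounts, filters, scalings, weights, variance trend, replicate block, limma voom on rebuilt reads with and without a filter, and each sample left out. Ier3 and Zfp36 were called in all 19, Zfp36l1 in 17, Ier2 in 15, Ier5 in 14, Myc in 5, Zfp36l2 in 2 and Ier5l in 0. The voom fits were the only alternatives with a count-based variance, and the one without a filter was added after seeing the data. The number of called genes, 5 of 8 as reported, was 4 with quantile normalization, 6 with a minimum mean FPKM of 5 or with voom, and 7 with limma's array weights (CTX replicate 2 had a weight of 0.163 and CTX replicate 3 one of 16.6). With the replicate block it was 2 (Ier3 and Zfp36). Same-numbered samples shared only a number (correlations of their deviations from the group means 0.06, 0.02 and 0.01, and not every sample was closest to its own number), and under the block the limma adjusted p was 0.073 for Ier2, 0.059 for Ier5 and 0.053 for Zfp36l1. Leaving out 1 sample in turn gave 3 to 7 called genes. There were 3 without PBS replicate 1 (Ier2 and Ier5 lost), without PBS replicate 3 (Ier5 and Zfp36l1 lost) or without CTX replicate 3 (Ier2 and Ier5 lost). There were 4 without PBS replicate 2 (Ier5 lost) and 7 without CTX replicate 1.

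The mean difference in share was 9.22 to 18.7 percentage points for Zfp36, 1.60 to 3.36 for Ier3 and 15.8 to 20.9 for Myc with 1 sample left out. The Myc difference was 14.8 when reads were not divided by gene length, and the cause was not tested. With the replicate block the exact sign-flip p was 0.25, the smallest possible, for all 3 shares. Across settings the called immediate-early genes numbered 13 to 27, AU-rich targets 4 to 11 and p53 targets 11 to 19. Without CTX replicate 2, 1 HSF1 target was called, and with array weights 1. With no fold threshold, 1 HSF1 target (Hspa8), 1 MAX network gene (Mycn), 1 MYC target (Ldha) and 1 IER partner (Mcl1) were called. Arc, with 3 to 42 reads per sample, is limited by depth.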
